A study of Mus musculus with 6 samples.

Results

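Of 30824 cells from the preoptic region of the mouse hypothalamus, 86 (0.279%) were selected as pericytes by 4 marker genes. A cell entered with at least 500 detected genes and at most 20% mitochondrial UMIs (unique molecular identifiers, which tag single RNA molecules before amplification), and with at least 4 raw UMIs summed over Kcnj8, Abcc9, Vtn and Higd1b. It could hold at most 4 UMIs of the smooth muscle genes Acta2, Tagln and Myh11, and at most 2 of the endothelial genes Cldn5 and Flt1. The files held 31299 barcodes, 351 barcodes that passed the filters held 4 or more UMIs of the marker genes, and the smooth muscle limit alone removed 218 of these, the endothelial limit alone 43 and both limits 4. The levels of those 9 genes chose the cells and are given as a description.

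Droplet (10x Chromium) RNA sequencing was run on protease-dissociated tissue after a sort that kept live cells, with 3 libraries of female and 3 of male mice. A library held a pool of 3 animals aged 60 to 70 days, each kept singly for 3 days before, and the labels give no strain, genotype or other treatment. Pooling hides differences between animals, and nothing states that replicates of a sex came from separate animals, so that p-values measure the spread between these libraries. The gated cells numbered 19, 24 and 4 in female replicates 1, 2 and 3 and 13 in each of male replicates 1, 2 and 3. Libraries held 410 to 9749 cells and 1278429 to 81162330 UMIs, with medians of 2684 to 6757 UMIs per cell. Female replicate 3 stood apart with 410 cells, and its 4 gated cells held 7521 UMIs in all. Across the libraries 479 barcode sequences occurred in more than 1 library. Of the gated cells 3 had such a barcode, and 0 pairs of gated cells shared one. Scrublet called 3 of the 86 doublets, and 1002 of all 30824 cells. Xist, the RNA that silences an X chromosome in females, was found in the gated cells of all 3 female libraries and had 0 UMIs in all 3 male libraries.

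Pericytes are contractile support cells embedded in the basement membrane of capillaries, where they wrap endothelial cells, take part in the blood-brain barrier and adjust capillary diameter. Endothelial PDGF-B recruits them through the receptor Pdgfrb, and Notch3 signalling keeps mural cells (pericytes and arterial smooth muscle cells) in place. Kcnj8 encodes the pore and Abcc9 the regulatory subunit of an ATP-sensitive potassium channel, Vtn encodes the adhesion protein vitronectin, and Higd1b a mitochondrial inner membrane protein. Brain fibroblasts of the meninges and large vessels, a separate stromal type, are known instead for fibrillar collagens, decorin and lumican.

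By markers outside the rule, the label pericyte went against 49 of the 86 cells. Summed UMIs of the fibroblast genes Col1a1, Col1a2, Col3a1 and Lum fell into separate ranges: 27 gated cells held 0, 10 held 1, none held 2 to 4, and 49 held 5 to 115 with a median of 16. These 49 cells were 57.0% of the gated cells (exact 95% binomial interval 45.9% to 67.6%, which covers counting error only). They are called collagen-positive here and the other 37 collagen-low, a split drawn after the values were seen, so that differences between these subsets are a description without a test. All 49 collagen-positive cells held Vtn (median 18 UMIs) and Dcn (median 43 UMIs), and 7 of the 49 held any UMI of Kcnj8, Abcc9 or Higd1b. Among the 37 collagen-low cells 34 held at least 1 of those 3 genes and 35 held Rgs5, a regulator of G protein signalling that marks mural cells and was not part of the selection. No collagen-positive cell held Rgs5, and 0 of 49 cells allows a share of cells with a UMI of up to 6.12%, which at this depth does not limit the share that express the gene. The collagen-positive cells thus met the rule mostly through Vtn, and the selection as a whole is called the gated cells.

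**Figure D1:**
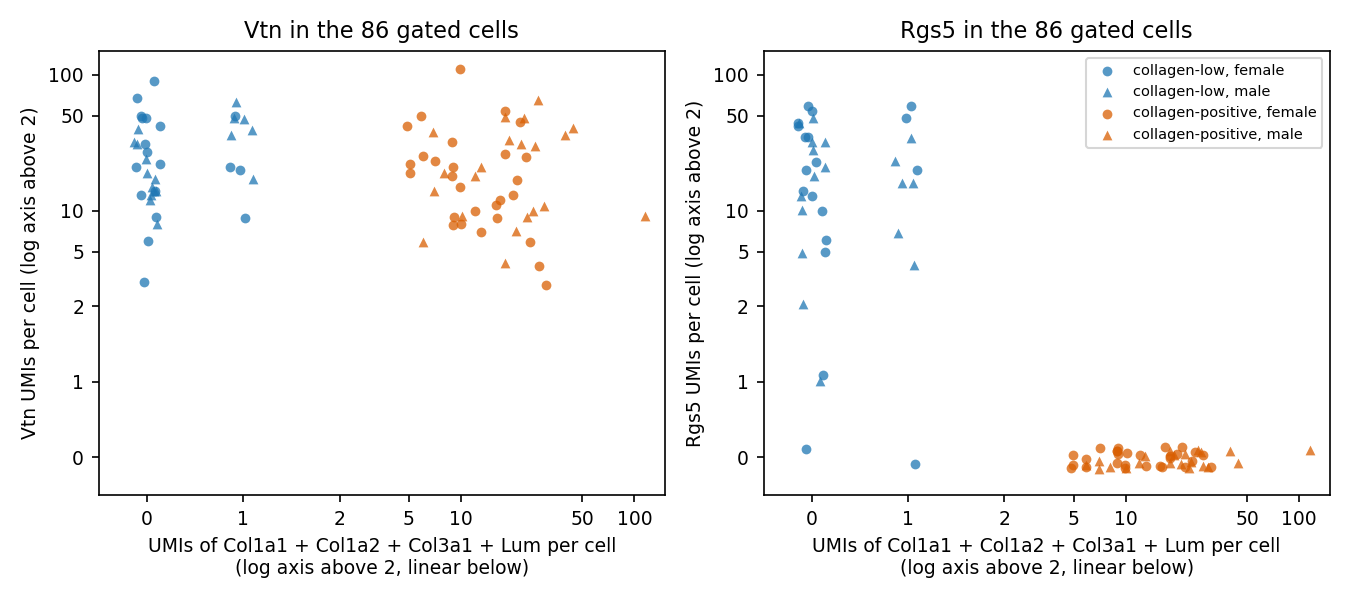
UMIs of Vtn (left) and Rgs5 (right) in each of the 86 gated cells against the summed UMIs of Col1a1, Col1a2, Col3a1 and Lum in the same cell; axes are linear to 2 UMIs and logarithmic above, and points are shifted slightly so that they do not overlap. Both subsets span the same range of Vtn, from 3 UMIs up, while Rgs5 is at 0 in all 49 collagen-positive cells and reaches 59 UMIs in the 37 collagen-low cells.

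Near the threshold the gate held mostly collagen-positive cells. Just outside, with 3 UMIs of the 4 marker genes and the other limits met, were 3 cells, of which all held Vtn, none held Kcnj8, Abcc9 or Higd1b and 2 held at least 4 collagen and Lum UMIs. Just inside, with 4 or 5 UMIs, were 4 cells, of which 3 were collagen-positive and 1 held Rgs5. Another 16 cells with 6 to 10 UMIs included 13 collagen-positive cells and 2 with Rgs5, and of the 66 cells above 10 UMIs 33 were collagen-positive and 32 held Rgs5. Gate UMIs per cell ran from 4 to 111 with a median of 22.

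The genes that define the gate lie on chromosomes 6 and 11. Kcnj8 (chr6:142564837-142571614, minus strand, GRCm38, GENCODE annotation) and Abcc9 (chr6:142587862-142702315, minus strand) lie side by side, and both are protein-coding, as are Vtn (chr11:78499091-78502324, plus strand) and Higd1b (chr11:102835849-102838040, plus strand). Rgs5 (chr1:169655501-169695813, plus strand) and Dcn (chr10:97479609-97518143, plus strand), found mainly in the collagen-low and in the collagen-positive cells, are protein-coding too. The 200 bases that lie 250 to 51 bases upstream of the RefSeq start (GRCm38.p6) are shown for Vtn, found in every gated cell, and for Kcnj8, Abcc9 and Rgs5, found almost only in the collagen-low cells, so that the sequences upstream of the genes shared and not shared by the subsets can be compared. Capitals mark matches to TGGGAA, the core of the site bound by the Notch effector RBPJ.
Vtn, chr11:78498870-78499069, plus strand: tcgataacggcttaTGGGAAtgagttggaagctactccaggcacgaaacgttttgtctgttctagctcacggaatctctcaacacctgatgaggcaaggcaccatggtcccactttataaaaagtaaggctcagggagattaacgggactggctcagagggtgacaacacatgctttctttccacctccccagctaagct
Kcnj8, chr6:142571665-142571864, minus strand: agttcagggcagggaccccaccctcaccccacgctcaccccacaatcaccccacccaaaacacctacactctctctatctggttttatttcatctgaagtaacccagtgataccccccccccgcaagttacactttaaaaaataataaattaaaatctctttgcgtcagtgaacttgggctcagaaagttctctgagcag
Abcc9, chr6:142702325-142702524, minus strand: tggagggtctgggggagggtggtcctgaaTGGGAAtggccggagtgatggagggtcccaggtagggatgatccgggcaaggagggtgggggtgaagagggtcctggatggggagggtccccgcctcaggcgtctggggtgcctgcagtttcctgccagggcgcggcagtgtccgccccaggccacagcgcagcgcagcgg
Rgs5, chr1:169655251-169655450, plus strand: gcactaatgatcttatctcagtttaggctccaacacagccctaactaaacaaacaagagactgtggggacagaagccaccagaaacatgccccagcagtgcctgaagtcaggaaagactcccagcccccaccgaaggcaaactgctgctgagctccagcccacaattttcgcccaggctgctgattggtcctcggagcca
Searched on both strands, TGGGAA occurred once in the windows of Vtn (at -236 from the start) and Abcc9 (at -221) and not in those of Kcnj8 and Rgs5. It occurred in 17.9% of 32851 promoter windows of the same length. The forkhead motif TGTTTAC, which 2.58% of the windows held, was in none of the 4. A match describes letters and is not a bound site.

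Levels are given as CPM, the UMIs of a gene scaled to the same total number of UMIs in every group of cells. Vtn was the marker that both subsets shared. In female replicates 1, 2 and 3 and male replicates 1, 2 and 3 it stood at 5444, 4587, 27012, 7914, 3597 and 17437 CPM in the collagen-low cells and at 5272, 3845, 14286, 5801, 3926 and 4899 CPM in the collagen-positive cells. These ranges overlapped, and the collagen-low values of female replicate 3 and male replicate 2 rest on 1 and 2 cells. Smooth muscle cells, gated here by at least 8 UMIs of Acta2, Tagln and Myh11 and at most 2 of Cldn5 and Flt1 (481 cells), held 583 CPM of Vtn, and endothelial cells, gated by at least 4 UMIs of Cldn5 and Flt1, at most 2 smooth muscle UMIs and at most 1 UMI of the 4 marker genes (471 cells), held 5.82 CPM. That last limit fixes low levels of Vtn, Kcnj8, Abcc9 and Higd1b in the endothelial cells, and their values for these genes are no measure of the type. With every cell thinned to 1000 UMIs, Vtn was found in 93.8% of collagen-low, 91.7% of collagen-positive, 36.8% of smooth muscle and 0.691% of endothelial cells.

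The other 3 marker genes lay with the collagen-low cells. Kcnj8 stood at 578 CPM there and at 19.9 CPM in the collagen-positive cells and 8.97 CPM in smooth muscle cells. Abcc9, its channel partner, stood at 122 CPM against 7.97 CPM (2 UMIs), and at 0.897 CPM in smooth muscle cells (2 UMIs). Higd1b stood at 961 CPM against 3.99 CPM (1 UMI), but smooth muscle cells held 407 CPM of it, so that it marked mural cells more widely than the channel genes did. At 1000 UMIs per cell 42.8% of collagen-low cells held Kcnj8, against 2.21% of collagen-positive and 1.11% of smooth muscle cells. Without thinning, at median depths of 2779, 4502 and 3545 UMIs, these shares were 59.5%, 8.16% and 3.33%.

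Among the gated cells, Rgs5 UMIs were all in the collagen-low cells. Summed per library it reached 5831, 2946, 10805, 9318, 981 and 9405 CPM in the collagen-low cells of female replicates 1 to 3 and male replicates 1 to 3. The values of female replicate 3 and male replicate 2 rest on 1 and 2 cells. Rgs5 had 0 of 250905 UMIs in the collagen-positive cells, which allows up to 11.96 CPM. Smooth muscle cells held 1840 to 10965 CPM over the 6 libraries, which overlaps the collagen-low range. The values of Rgs5 by library over all gated cells (3368, 1102, 2659, 4200, 207 and 4238 CPM) stand beside a collagen-positive share of 47.4%, 66.7%, 75%, 46.2%, 84.6% and 30.8%. Male replicate 2 had the lowest Rgs5 level and the highest collagen-positive share, and male replicate 3 the highest level and the lowest share.

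**Figure D2:**
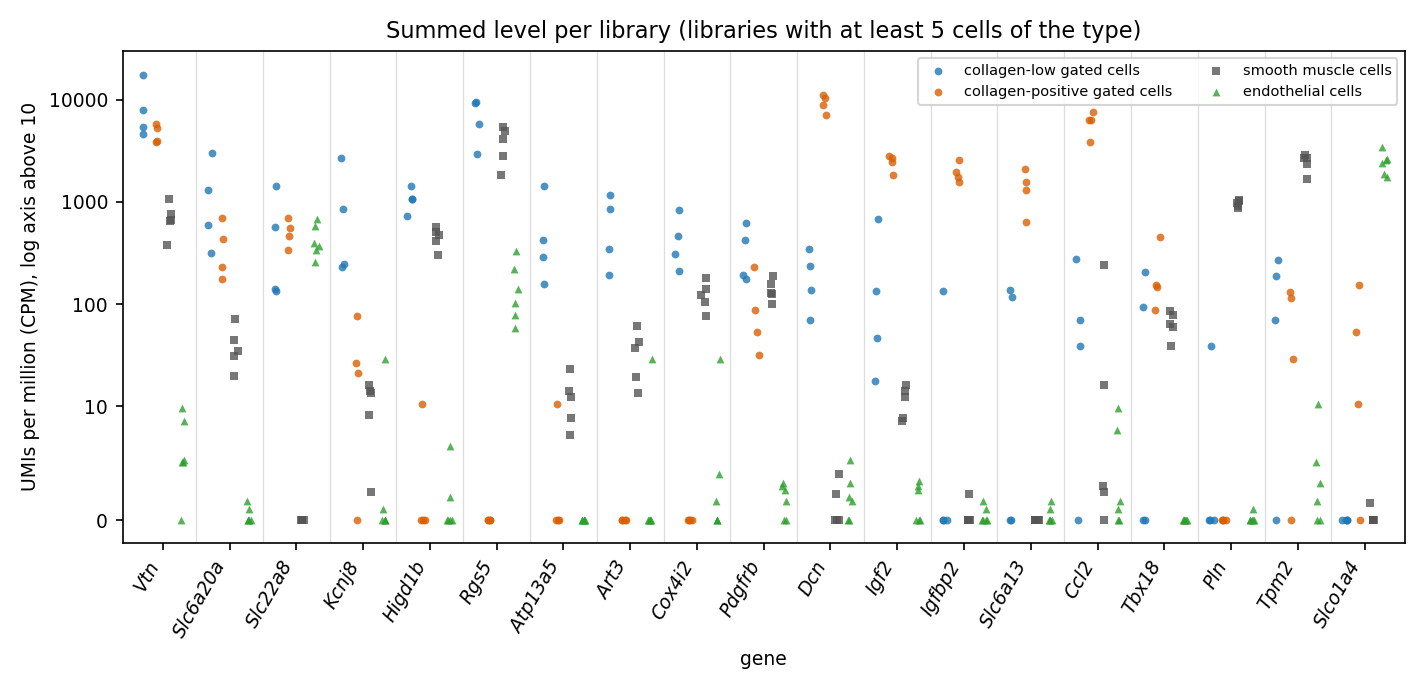
Level of 19 genes in CPM (axis linear to 10 CPM and logarithmic above), 1 point per library with at least 5 cells of the type, for collagen-low and collagen-positive gated cells (4 libraries each), smooth muscle cells (5 libraries) and endothelial cells (6 libraries). Vtn and Slc6a20a are high in both subsets, Rgs5, Higd1b, Atp13a5, Art3 and Cox4i2 in the collagen-low cells, and Dcn, Igf2, Igfbp2, Slc6a13 and Ccl2 in the collagen-positive cells.

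The 37 collagen-low cells carried a wider set of genes known from brain pericytes. Atp13a5, a transport ATPase, stood at 291, 159, 421 and 1442 CPM in female replicates 1 and 2 and male replicates 1 and 3, the 4 libraries with at least 5 collagen-low cells, against 12.3, 7.45, 23.2 and 14.2 CPM in their smooth muscle cells. Art3, of the ADP-ribosyltransferase family, stood at 349, 194, 843 and 1167 CPM there, against 61.5, 13.7, 37.1 and 42.6 CPM. In both genes every collagen-low value lay above every smooth muscle value of these libraries. Atp13a5 was found in 22 of the 37 cells and had 1 UMI in the 49 collagen-positive cells, and Art3 was found in 25 and had none. Pdgfrb, the receptor for PDGF-B, was shared more widely: it was found in 27 collagen-low and 17 collagen-positive cells, at 274 and 79.7 CPM, and stood at 126 CPM in smooth muscle and 2.49 CPM in endothelial cells. Notch3 and the proteoglycan gene Cspg4 (NG2), both mural genes, had 18 and 16 UMIs in the collagen-low cells and none in the collagen-positive cells.

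Both subsets held 2 transporters in common. Slc6a20a, a proline and imino acid transporter (chr9:123634770-123678885, minus strand, GRCm38), stood at 601, 318, 540, 1311, 273 and 3020 CPM in the collagen-low and at 689, 432, 1764, 230, 174 and 957 CPM in the collagen-positive cells of the 6 libraries in the same order. The ranges overlapped, and 32 of 37 and 31 of 49 cells held the gene. The collagen-low values of female replicate 3 and male replicate 2 rest on 1 and 2 cells. Smooth muscle cells held 31.8 CPM, endothelial cells 0.831 CPM and all cells outside the gate 0.933 CPM. Slc22a8, an organic anion transporter of the blood-brain barrier, was found in 19 and 36 cells at 310 and 486 CPM and had 0 UMIs in 481 smooth muscle cells, which allows up to 1.35 CPM. Endothelial cells held it at 346 CPM.

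The 49 collagen-positive cells carried matrix, growth factor and transporter genes. Dcn, the matrix proteoglycan decorin, stood at 10464, 8912, 7936, 11103, 7038 and 9573 CPM over the 6 libraries in the same order, and at 182 CPM in the collagen-low, 0.897 CPM in the smooth muscle and 2.49 CPM in the endothelial cells. Igf2, a fetal growth factor that meningeal and vascular stroma keeps expressing in adults, stood at 1689 to 2782 CPM over the 6 libraries, against 0 to 686 CPM in the collagen-low cells. Its binding protein gene Igfbp2 stood at 1548 to 2928 CPM and had 7 UMIs in 2 collagen-low cells. Slc6a13, a GABA and taurine transporter, was found in 46 of 49 cells (1327 CPM) and in 3 of 37 collagen-low cells (48.7 CPM). Ptgds, the synthase of prostaglandin D2, stood at 14173 against 651 CPM, and Apod, a lipid carrier, at 15097 against 213 CPM.

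Of the 25 genes with the highest ratio of CPM in gated cells to CPM in all other cells, 23 stood higher in the collagen-positive than in the collagen-low cells, among them Col1a1, Col1a2, Col3a1 and Lum, which made the split and had to. Slc22a6, Inmt, Fam180a, Igf2 and Itih2 led this order, with 163, 709, 514, 2455 and 255 CPM in the collagen-positive cells and 6.08, 0, 6.08, 116 and 0 CPM in the collagen-low cells. The other two, Vtn and Slc6a20a, stood higher in the collagen-low cells, and Kcnj8, Abcc9, Higd1b and Rgs5 were not among the 25.

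The comparison with smooth muscle cells, the nearest mural type, asked which genes beyond the gate differed. Both gates select on opposite sides of Acta2, Tagln and Myh11, so that the fits describe the size of the difference and are no test of a separate type. UMIs were summed per library and fitted with the library as block in the 5 libraries with at least 5 cells of each type (edgeR quasi-likelihood test, called at an adjusted p under 0.05, gate genes left out). Of 2205 genes tested 22.7% were called, 251 (11.4%) higher and 250 (11.3%) lower in the gated cells, and 160 were lower without female replicate 2. Against endothelial cells 24.2% of 2541 genes were called, 279 (11%) higher and 336 (13.2%) lower, and 181 were higher without female replicate 2. The 15 genes highest over smooth muscle included Slc6a13 (at least 581-fold higher), Slc22a8, Inmt and Col1a1 (at least 239.7-fold higher), each with 0 UMIs in smooth muscle cells, and Spp1 (log2 fold change 9.09 ± 0.41 SE) and Itih5 (9.26 ± 0.30). All 6 had most of their gated UMIs in the collagen-positive cells, which held 674 of 682 for Spp1 and 122 of 173 for Slc22a8. Counts over all gated cells therefore mix both subsets, and the fits were repeated in each subset, an alternative chosen after seeing the data, in the 4 libraries with at least 5 cells of the subset and of the other type.

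In collagen-low cells the contractile genes were lower than in smooth muscle cells and several pericyte genes higher. In that fit 22 of 1088 genes (2.02%) were called higher and 64 (5.88%) lower. Of 17 contractile and cytoskeletal genes tested none was called higher and 13 lower, with a median log2 fold change of -2.41 where that of all tested genes was 0.03. Pln, which encodes phospholamban, the brake of the calcium pump in muscle, had 2 UMIs in 1 collagen-low cell against 867 to 1047 CPM in the smooth muscle cells of the fitted libraries. Tpm2, a tropomyosin, stood at 271, 70.6, 187 and 0 CPM in female replicates 1 and 2 and male replicates 1 and 3 against 2656, 2354, 2692 and 1676 CPM, a fitted log2 fold change of -4.09 ± 0.40 SE. Mylk, the myosin light chain kinase that starts contraction, stood at 174, 106, 328 and 481 CPM against 1402, 1100, 1351 and 980 CPM (-2.41 ± 0.38 SE). Every collagen-low value of these 3 genes lay below every smooth muscle value. Crispld2, a secreted protein gene kept in the same list, had 0 UMIs in the collagen-low cells, which allows up to 18.2 CPM, and stood at 567 CPM in smooth muscle cells. It could be tested only through its level in smooth muscle, so that the count of 13 holds for the genes tested.

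Of the 16 pericyte genes outside the gate that could be tested in the collagen-low cells, 6 were called higher than in smooth muscle and 1 lower. Some of the 16, such as Atp13a5 and Slc6a20a, were low in smooth muscle and could be tested only through their level in the collagen-low cells. The count thus holds for the genes tested and not for the list of 27. The log2 fold changes of those called higher were 4.70 ± 0.45 SE for Atp13a5, 4.59 ± 0.38 for Slc6a20a, 4.25 ± 0.40 for Ifitm1, an interferon-induced membrane protein gene, 3.81 ± 0.43 for Art3, 1.61 ± 0.36 for Cox4i2 and 1.17 ± 0.29 for Ndufa4l2. Sparcl1, a matrix-associated glycoprotein gene, was called lower (-1.22 ± 0.29). Rgs5 (0.76 ± 0.26) and Pdgfrb (1.07 ± 0.39) did not pass, with edgeR adjusted p of 0.101 and 0.132. Notch3 (-0.15 ± 0.42) and Gper1 (0.03 ± 0.33), a membrane estrogen receptor gene of mural cells, did not either, with adjusted p of 0.857 and 0.974. Gper1 stood at 243 CPM in the collagen-low and 253 CPM in the smooth muscle cells and had 2 UMIs in the collagen-positive cells.

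Some genes called higher in the collagen-low cells than in smooth muscle lay outside the pericyte list, among them the neuronal genes Syt1, Pnmal2, Sncb (log2 fold change 1.51 ± 0.37 SE) and Ndrg4 (1.93 ± 0.39). The summed neuron markers were 9190 CPM in the collagen-low and 4161 CPM in the smooth muscle cells, and their part in these calls was not tested. Ptn, the secreted growth factor pleiotrophin, stood at 3855, 2064, 3886 and 9679 CPM in the same 4 libraries against 197, 302, 273 and 256 CPM (log2 fold change 4.01 ± 0.37 SE). Pooled over libraries it stood at 3564 CPM in the collagen-low and 6831 CPM in the collagen-positive cells, whose ranges over the 6 libraries (1853 to 9679 and 5214 to 9700 CPM) overlapped. Sod3, the extracellular superoxide dismutase, was found in 26 of 37 and 28 of 49 cells (3.08 ± 0.38 SE for the collagen-low cells).

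**Figure D3:**
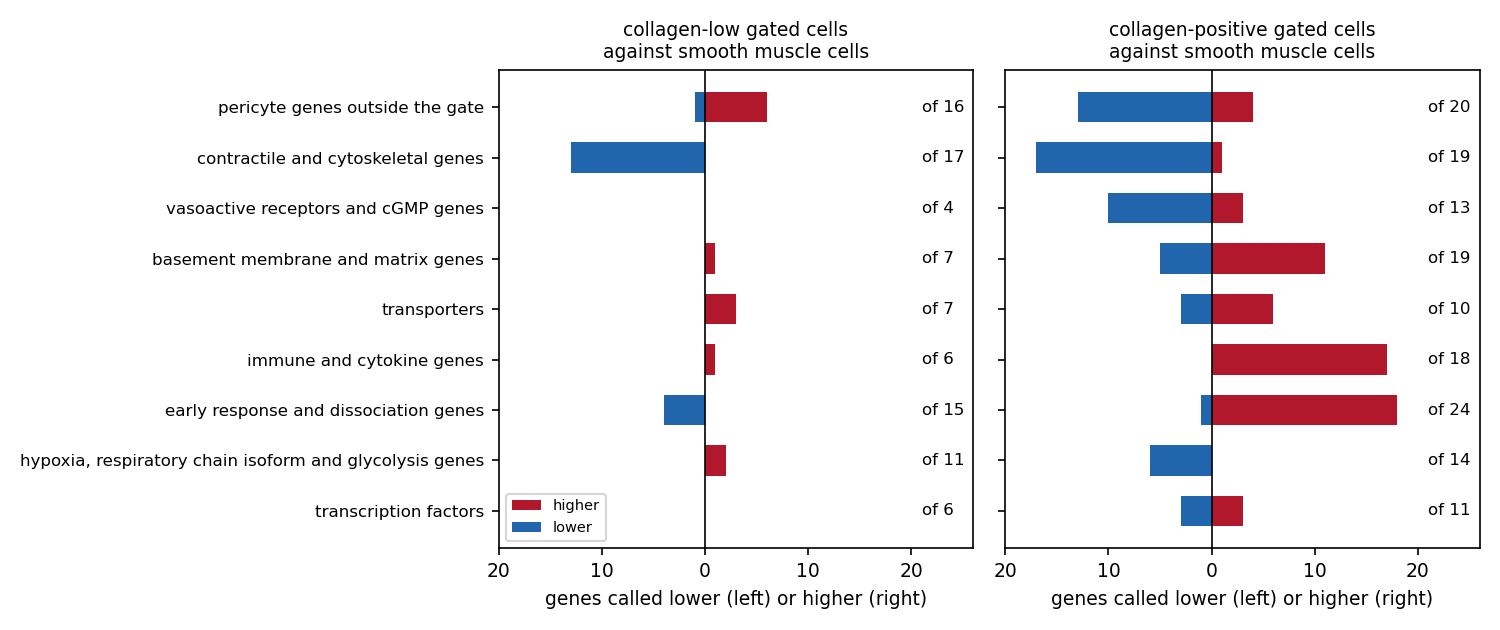
Number of genes of each list called higher (right, red) or lower (left, blue) at an edgeR adjusted p under 0.05 against smooth muscle cells, for the collagen-low (left panel) and collagen-positive (right panel) gated cells, with the number tested beside each bar. A gene could enter a fit through its level in either group alone, so that counts hold for the genes tested. Contractile genes are called lower in both panels (13 of 17 and 17 of 19). Early response genes are called higher at right (18 of 24) and lower at left (4 of 15), and immune genes higher at right (17 of 18) and at left for Ifitm1 alone (1 of 6).

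The collagen-positive cells differed from smooth muscle in matrix, immune and early response genes. In that fit 417 of 2981 genes (14%) were called higher and 389 (13%) lower. Of 20 pericyte genes tested 4 were higher (Slc6a20a, Ifitm1, Tbx18 and Zic1) and 13 lower, with a median log2 fold change of -2.25 against -0.06 over all genes. Some of the 20, such as Rgs5 and Cox4i2 with 0 UMIs in the collagen-positive cells, could be tested only through smooth muscle. These counts hold for the genes tested. Of 19 basement membrane and matrix genes 11 were higher, among them Lamb1 (5.41 ± 0.51 SE), a laminin chain, and Nid1 (3.04 ± 0.36), the laminin-binding protein nidogen, and 5 lower, among them the integrin gene Itga7. The cells were chosen by matrix genes of these same data, so that the matrix count is a description and no support for their type. Tbx18, a transcription factor gene used to trace mural cells, had 51 UMIs in 27 collagen-positive cells and 5 UMIs in 4 collagen-low cells, so that in these data it stood lower in the cells with Rgs5 (30.4 CPM) than in those without (203 CPM).

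Most immune genes that could be tested, chemokines among them, were higher in the collagen-positive cells than in smooth muscle. Of 18 immune and cytokine genes tested in the collagen-positive cells 17 were called higher than in smooth muscle and none lower, where 14% of all genes were higher. Several of the 18 could be tested only through their level in the collagen-positive cells, such as Ccl11 with 0 UMIs in smooth muscle, so that the count holds for the genes tested and not for the list of 33. Against endothelial cells 11 of 23 immune genes tested were called higher and 4 lower, where 11.1% and 11.2% of all genes were. Ccl2, the monocyte chemoattractant, stood at 7550, 6373, 0, 3842, 6253 and 113 CPM in the 6 libraries in the same order, against 242, 2.48, 0, 16.2, 2.98 and 0 CPM in smooth muscle cells, and Ccl7, a related chemokine gene, at 6940, 3487, 0, 5494, 3999 and 56.3 CPM. Both were high in 4 libraries and low in female replicate 3 and male replicate 3, where 3 and 4 collagen-positive cells were found. Cxcl12, a chemokine gene of stroma and endothelium, was more even, at 832 to 1729 CPM over the 6 libraries. Il33, an alarmin, was found in 34 of 49 and 6 of 37 cells, and Il34, a survival factor of microglia, in 35 of 49 and 22 of 37, at 414 and 280 CPM.

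Early response genes, which stimulation and tissue dissociation are known to induce, were higher in the collagen-positive cells than in smooth muscle. Of 24 tested in the collagen-positive cells 18 were called higher than in smooth muscle and 1, Rrad, lower. Of 15 tested in the collagen-low cells none was called higher and 4 (Fos, Junb, Hspa1a and Rrad) lower, where 2.02% and 5.88% of all genes were called. Fos and Junb were thus called in opposite directions in the subsets, and the difference between the subsets was not tested. Against endothelial cells 9 of 24 early response genes tested in the collagen-positive cells were called higher and 3 lower. Fos stood at 4026, 3919, 4188 and 2676 CPM in the collagen-positive cells of female replicates 1 and 2 and male replicates 1 and 2, and at 578, 923, 802 and 874 CPM in their smooth muscle cells (log2 fold change 2.26 ± 0.20 SE). In the collagen-low cells of female replicates 1 and 2 and male replicates 1 and 3 it stood at 174, 441, 46.8 and 412 CPM, where smooth muscle cells held 578, 923, 802 and 1563 CPM (-1.75 ± 0.36 SE).

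Several subunits of the respiratory chain have an alternative gene used in hypoxia-sensing and vascular cells, and 2 of these were frequent in the gated cells. Ndufa4l2 made up 59.8% (exact 95% interval 54.0% to 65.4%) of the UMIs of Ndufa4l2 and Ndufa4 in the collagen-low cells, 21.3% in the collagen-positive, 35.8% in the smooth muscle and 1.03% in the endothelial cells. Its share in the collagen-low cells of female replicates 1, 2 and 3 and male replicates 1, 2 and 3 was 45.1%, 51.4%, 100%, 84.8%, 33.3% and 95.2%. The values of female replicate 3 and male replicate 2, the highest and the lowest, rest on 1 and 2 cells. Cox4i2 made up 21.6% (16.6% to 27.3%) of the UMIs of Cox4i2 and Cox4i1 in the collagen-low cells, 7.30% in smooth muscle and 0.235% in endothelial cells. In the collagen-positive cells it had 0 of 204 UMIs of the pair. Higd1b, a gate gene, made up 84.0% of the UMIs of Higd1b and Higd1a in the collagen-low cells and 66.3% in smooth muscle cells.

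Tested over the 5 libraries with enough UMIs, no isoform share differed between gated and comparison cells beyond what an exact sign-flip test over libraries can call. The smallest p that 5 libraries allow is 0.0625, and all p adjusted over the 8 pairs of genes and types were 0.25 or higher. Over all gated cells the share of Cox4i2 was 6.13 ± 10.3 points (SD) higher than in smooth muscle (higher in 4 of 5 libraries, exact p = 0.313) and 15.3 ± 12.9 points higher than in endothelial cells (5 of 5, exact p = 0.0625). The share of Ndufa4l2 was 9.90 ± 13.5 points higher than in smooth muscle (3 of 5, exact p = 0.25) and 51.4 ± 23.6 points higher than in endothelial cells (5 of 5, exact p = 0.0625). In the collagen-low cells alone the difference from smooth muscle was 18.4 points for Cox4i2 and 24.6 points for Ndufa4l2 (4 of 4 libraries each, exact p = 0.125, the smallest that 4 libraries allow).

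**Figure D4:**
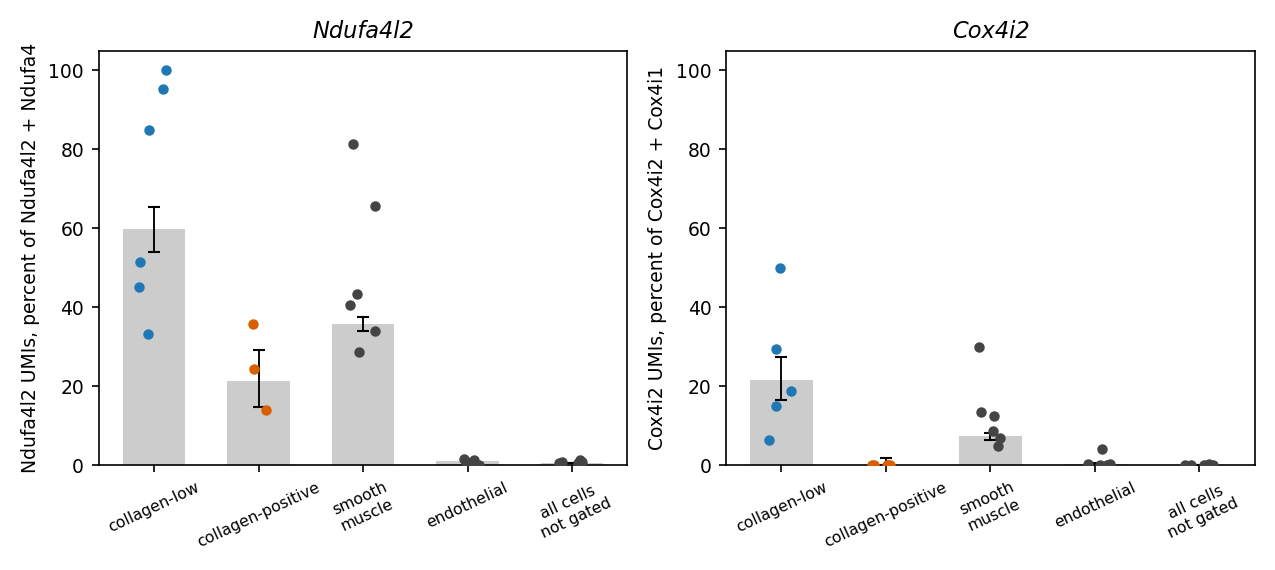
Share of Ndufa4l2 (left) and Cox4i2 (right) among the UMIs of each gene and its common isoform gene, in percent, by group; bars pool all libraries with exact 95% intervals that cover counting error only, and points are libraries with at least 10 UMIs of the pair. Ndufa4l2 is 59.8% in collagen-low and 21.3% in collagen-positive cells, and Cox4i2 is 21.6% and 0%.

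Against endothelial cells the collagen-low cells were higher in most pericyte genes that could be tested. Transporter genes that could be tested differed in both directions. In that fit 76 of 1607 genes (4.73%) were called higher and 223 (13.9%) lower. Of 13 pericyte genes tested 10 were called higher and none lower, among them Ifitm1 (log2 fold change 7.20 ± 0.39 SE), Ndufa4l2 (6.99 ± 0.42), Pdgfrb (6.31 ± 0.56) and Rgs5 (5.02 ± 0.50). Art3, Atp13a5 and Slc6a20a, called higher too, had 1, 0 and 2 UMIs in the 471 endothelial cells. These genes could be tested only through their level in the collagen-low cells. The count thus holds for the genes tested and not for the list of 27. The limit of 1 UMI of the 4 marker genes also kept cells with more RNA of those genes out of the endothelial gate. Of 16 transporter genes 7 were higher, among them the sodium pump subunit Atp1b2 (4.07 ± 0.42), and 8 lower, among them the glucose transporter Slc2a1 (-5.28 ± 0.45). The organic anion carrier Slco1a4 had 1 UMI in the collagen-low cells and stood at 2136 CPM in endothelial cells. Transporter genes such as Slco1a4 could be tested only through the endothelial cells, and others such as Atp13a5 only through the collagen-low cells. The transporter counts in both directions thus hold for the genes tested. The cGMP-forming guanylate cyclase subunits Gucy1a3 (3.96 ± 0.52) and Gucy1b3 (4.12 ± 0.39), which answer nitric oxide from the endothelium, were called higher. The collagen-positive cells had 418 of 3773 genes (11.1%) higher and 423 (11.2%) lower than endothelial cells, and of 8 pericyte genes tested there 3 were higher and 4, Rgs5 among them, lower.

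RNA of marker genes for other cell types was present at levels that differed between the subsets and libraries. The 7 endothelial markers, of which the rule limits Cldn5 and Flt1, summed to 48.7 CPM in the collagen-low cells (0 to 96.9 CPM over libraries, Cldn5 at 0), 749 CPM in the collagen-positive cells (353 to 1126 CPM, Ly6c1 at 0) and 26.5 CPM in smooth muscle cells (Cdh5 at 0). Ly6c1 stood at 3066 CPM in the endothelial cells of the fitted libraries. The collagen-positive sum thus came from other markers of the list and is no measure of endothelial RNA. The 5 neuron markers summed to 9190 CPM in the collagen-low (0 to 14279 over libraries), 3424 CPM in the collagen-positive and 4161 CPM in the smooth muscle cells, and none of the 5 was at 0. The collagen-low extremes are those of female replicate 3 and male replicate 2, with 1 and 2 cells. The 8 microglia and macrophage markers summed to 341 CPM in the collagen-low cells, with Mrc1 and Pf4 at 0. A single cell held 51 of these UMIs, and female replicate 2 stood at 935 CPM. The 6 oligodendrocyte markers summed to 1940 CPM in the collagen-low and 3671 CPM in the collagen-positive cells. The latter sum rests largely on a single cell with 526 UMIs: male replicate 3 stood at 30747 CPM, the other libraries at 529 to 1949 CPM. The part of this RNA in the gene differences was not tested.

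The share of gated cells was compared between the sexes. They made up 0.410%, 0.246% and 0.976% of the cells of female replicates 1, 2 and 3 and 0.179%, 0.191% and 0.663% of male replicates 1, 2 and 3, so that the groups overlapped. Means were 0.544 ± 0.383% (SD, n = 3) in females and 0.344 ± 0.276% (SD, n = 3) in males, a difference of 0.200 percentage points (exact two-sided permutation test, p = 0.5, the smallest possible being 0.1). The direction rested on female replicate 3: without it females were lower by 0.0159 points. Collagen-low cells made up 0.181 ± 0.0865% of female and 0.195 ± 0.231% of male cells (SD, n = 3; exact permutation p = 0.9), and collagen-positive cells 0.363 ± 0.319% and 0.149 ± 0.0616% (SD, n = 3; exact permutation p = 0.4).

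**Figure D5:**
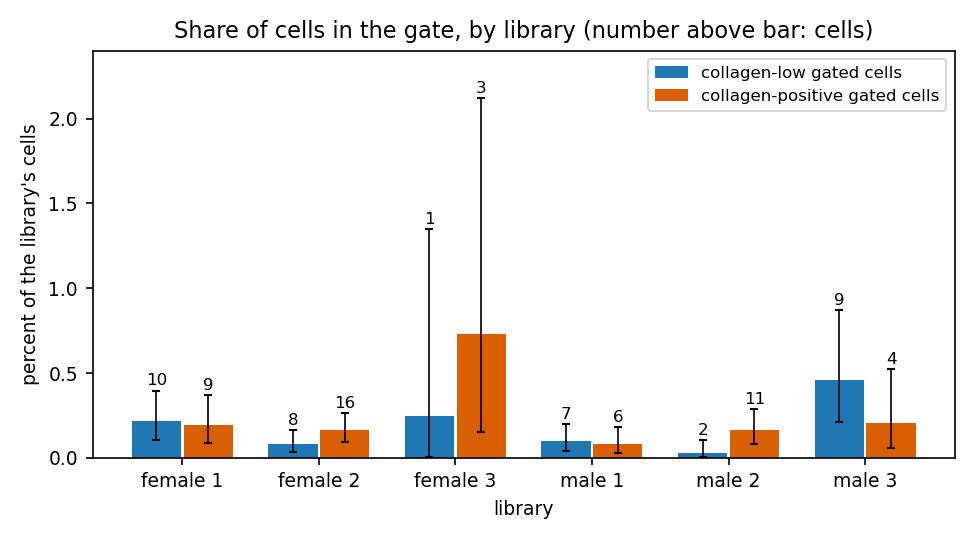
Collagen-low and collagen-positive gated cells as a percent of the cells of each library, with exact 95% binomial intervals (counting error only) and the number of cells above each bar. The intervals of female replicate 3, with 1 and 3 cells, are the widest, and collagen-low cells range from 0.0294% in male replicate 2 to 0.459% in male replicate 3.

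Between the sexes Xist was the gene called in the gated cells. In the 5 libraries with at least 10 gated cells (all but female replicate 3), 1 of 1965 genes tested (0.0509%) was called, higher in females, and none lower, with 69 genes at an unadjusted p under 0.05 in edgeR and 29 in DESeq2, which also called 1. Xist (chrX:103460366-103483254, minus strand, GRCm38, a long noncoding RNA) stood at 996 and 937 CPM in female replicates 1 and 2 and 0 in the 3 male libraries, which over the group is at least 53.3-fold higher in females (edgeR adjusted p = 0.0182). Without male replicate 1 it missed the threshold (adjusted p = 0.238, edgeR). The Y gene Ddx3y, an RNA helicase, stood at 0 and 6.60 CPM (1 UMI) in the females and 106, 207 and 217 CPM in the males (edgeR adjusted p = 0.326), and its X partner Ddx3x at 112 and 178 against 232, 184 and 61.9 CPM. The groups did not overlap for 403 genes (20.5%).

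The next genes by p were far from the threshold. Penk, the enkephalin precursor of neurons, stood at 638 and 363 CPM in females and 42.2, 103 and 61.9 CPM in males (log2 fold change 2.68 ± 0.48 SE, edgeR adjusted p = 0.326). Arpp21 (2.77 ± 0.52) and Alcam (2.13 ± 0.47) were the other 2 with the smallest p toward females, and Ddx3y, Rps18-ps3 (-1.71 ± 0.39) and Kcne4 (-2.81 ± 0.71), a potassium channel subunit gene, toward males. Among the 27 pericyte genes outside the gate 16 could be tested and none was called. The neuron marker sum moved with the libraries too, at 8583 and 5329 CPM in female replicates 1 and 2 and 1646, 7967 and 681 CPM in male replicates 1, 2 and 3, and its part in Penk was not tested.

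Within the collagen-low cells alone, in female replicates 1 and 2 against male replicates 1 and 3 and with 7 to 10 cells each, 11 of 728 genes (1.51%) were called higher and 11 (1.51%) lower in females. Those higher included the neuronal genes Meg3 (9822 and 6827 against 1405 and 1236 CPM), Penk and Scg2. Those lower included Slc6a20a (601 and 318 against 1311 and 3020 CPM), Ifitm1 (620 and 282 against 1358 and 3158 CPM), Slc22a8, Sparc and Gja4, a connexin of arterial and mural cells (96.9 and 35.3 against 983 and 1030 CPM). In both directions the groups of 2 libraries did not overlap. The share of all 728 genes without overlap was not computed, so that this adds no support to the calls. The summed neuron markers were 12341 and 9350 CPM in the female and 2903 and 1373 CPM in the male cells of this comparison, and the median depths 2842 and 6877 against 2656 and 1581 UMIs. In the collagen-positive cells 1 of 996 genes (0.1%) was called, and male replicate 2, the library left out of the collagen-low comparison with 2 cells, held Slc6a20a at 273 CPM and the neuron markers at 14279 CPM. The part of neuronal RNA and of depth in these 22 calls was not tested.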

How the data were processed

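The authors deposited raw UMI counts per gene and cell in 1 matrix, with the library given by the end of each barcode, per the labels; Cell Ranger 2.0.0 and build mm10 were used, per the submitters' processing notes. No source used here gives the annotation, the strand or the cell calling. Members and gene lists were chosen with earlier results of these data known. Counts were summed per library and group and tested with edgeR 4.0.16 (quasi-likelihood, TMM, default filter, Benjamini-Hochberg). The standard error is the log2 fold change over the root of F. Fits ran after the code was tested on simulated data. Doublets were called with Scrublet in scanpy 1.11.5 and kept. DESeq2 1.42.0, R 4.3.3, scipy 1.17.1 and Python 3.11.15 were also used. Named genes were the gate genes, members of 14 lists (385 genes), up to 15 called genes per direction with the largest consistent change, for sex the called, X and Y genes and the 3 smallest p per direction, the 25 highest ratios to other cells and the 15 with the largest spread between gated cells; Ptn, Sod3, Syt1, Sncb, Ndrg4, Pnmal2 and the sex genes of the collagen-low cells were added after their values were seen. Fibroblasts gated with 4 or more collagen and Lum UMIs but at most 3 gate UMIs (14 cells) were too few to fit. In pooled libraries fewer cells and less RNA per cell cannot be told apart. Floors are 3 UMIs or 3 cells.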

Additional observations from a re-analysis of the deposited data

How the results depend on the processing

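Alternatives were recomputed for every comparison, and 152 of 173 values that answer one were labelled the same. For a count of called genes this means a change within a set fold, and for an isoform share the same direction. For the cell share it means the same direction and side of the threshold. For Higd1b it means a change below the SD: against smooth muscle its share turned from -5.47 to 4.11 points without male replicate 2. Of 1100 values of single genes 1042 kept direction and side of the threshold. Without the filter on low counts 400 genes were higher and 646 lower than in smooth muscle, 551 and 1022 than in endothelial cells, and 8 and 4 between the sexes. Leaving out 1 library gave 169 to 341 higher and 160 to 349 lower genes against smooth muscle, 181 to 328 and 279 to 459 against endothelial cells, and 0 to 1 for sex. Collagen-low cells alone gave 22 and 64 against smooth muscle, 76 and 223 against endothelial cells and 11 and 11 for sex, and collagen-positive cells alone 417 and 389 against smooth muscle. Against smooth muscle, Cox4i2 (0.13 log2) turned to -0.23 without the filter, -0.13 without Scrublet doublets, -0.062 without male replicate 1, -0.18 without male replicate 3 (range over left-out libraries -0.18 to 0.48) and -8.00 in collagen-positive cells. Ndufa4l2 (-0.027) turned to 0.041 with a gate of 8 UMIs, 0.057 with no replicate block, 0.035 without female replicate 1, 0.16 without male replicate 2 (range -0.21 to 0.16) and 1.17 in collagen-low cells. In collagen-low cells Rgs5 (-0.87) turned to 0.76 and Fos (1.37) to -1.75, and in collagen-positive cells Rgs5 against endothelial cells (3.46) to -8.90. Ddx3x between the sexes (-0.21) turned to 0.091 without female replicate 1 and 0.062 without male replicate 1 (range -0.59 to 0.091). The sex difference in share ran from -0.0159 to 0.359 points when 1 library was left out and was -0.0142 in collagen-low cells. In collagen-low cells the Cox7a1 share against smooth muscle became -0.0807 and that of Higd1b 17.7 points. Beyond what the construction of an alternative changes, the cause was not tested. Same-numbered female and male libraries correlated at 0.0736, 0.288 and 0.246 in their deviations, and different-numbered ones at -0.263 to 0.215. Female replicates 2 and 3 correlated best with the male library of the same number, and female replicate 1 with male replicate 2. The numbers were not taken as pairs, and whether same-numbered libraries share a batch was not tested. With a replicate block 1 gene was called for sex and 78 had an unadjusted p under 0.05. Fewer cells and libraries left 1088 genes to test against smooth muscle in the collagen-low cells, where all gated cells had 2205. The comparison with fibroblasts and its alternatives could not be run.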
